A study of Mus musculus with 6 samples.

Results

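Complement is a set of blood and tissue proteins that mark and destroy microbes. The C1q complex, built of the products of C1qa, C1qb and C1qc, starts the classical pathway, and factor B (Cfb) and properdin (Cfp) build and stabilise the convertase of the alternative pathway. Both routes cleave C3, and the small fragments C3a and C5a then act on macrophages through the receptors C3ar1, C5ar1 and C5ar2. Tissue macrophages are a known source of C1q, and C5ar1 is a G protein-coupled receptor that draws phagocytes to sites of infection, whereas C5ar2 binds C5a without coupling to G proteins. The 9 genes C3, Cfb, Cfp, C1qa, C1qb, C1qc, C5ar1, C5ar2 and C3ar1 were taken by gene name from a table of 41972 entries, and all 9 had counts.

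The table holds RNA-seq counts per gene of mouse bone-marrow-derived macrophages, wild type and grown from marrow of 6-week-old male C57BL/6 mice for 6 days in 20% serum with 30% of L-929-conditioned medium, which supplies the macrophage growth factor M-CSF. The groups were LD-F1_b (6 h with extracellular vesicles, EVs, that came from Aspergillus flavus, a mould, labelled LD-F1_b), LD-F1 (6 h with EVs labelled LD-F1) and PBS (6 h with the buffer alone), with 2 libraries each. EVs were given at 20 µg per well. The titles call LD-F1_b and LD-F1 strains without saying how they differ, and the design calls the libraries biological replicates without naming animals or cultures, so p-values measure only the spread between these libraries. The labels put the cells of all 3 groups under the same treatment term, co-culture, so the groups were taken from the titles.

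Libraries held 13722215 to 15277997 counts, which puts 3 counts, the floor used here, at 0.189 to 0.225 CPM (counts scaled by library size with TMM factors). This floor only describes low levels, and the filter on low counts before testing was a separate one. In the macrophage marker list Csf1r (1140 to 1340 CPM), Adgre1 (388 to 451), Cd68 and Spi1 were abundant in every library, while Mertk, a receptor of mature macrophages, had 1 to 10 counts. Neutrophil markers, which matter because neutrophils carry much C5ar1, had 5 of 9 genes with counts and summed to 2.69 to 3.34 CPM (LD-F1_b), 2.77 to 3.20 (LD-F1) and 2.48 to 2.65 (PBS), with Ly6g, S100a9, Elane and Retnlg at 0. Dendritic cell markers (5 of 7 with counts, Ccr7 and Siglech at 0) summed to 6.15 to 7.16 CPM (LD-F1_b), 8.89 to 8.99 (LD-F1) and 2.90 to 3.26 (PBS). Xcr1 alone carried that difference, at 4.44 CPM in LD-F1_b, 8.06 in LD-F1 and 1.22 in PBS, while the other tested markers Zbtb46 and Cd209a were not called and stood at -0.90 and -1.26 on the log2 scale for LD-F1 against PBS. Endothelial markers (5 of 5 with counts) summed to 37.4 to 38.7 CPM (LD-F1_b), 27.6 to 36.9 (LD-F1) and 48.3 to 55.9 (PBS), nearly all of it Vwf (37.2 CPM in LD-F1_b, 30.6 in LD-F1 and 50.7 in PBS), with Pecam1, Cdh5, Kdr and Tek each at a mean under 1 CPM. The part of other cell types in the results was not tested. Between the LD-F1 replicates, log2 CPM differences followed gene length over 8624 genes (Spearman's rho = 0.51, longer genes higher in replicate 1), against 0.22 for LD-F1_b and 0.01 for PBS. In bulk RNA, fewer cells expressing a gene and less RNA of it per cell cannot be told apart.

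Promoter sequence is shown for the central component C3 and the 3 anaphylatoxin receptors, since these 4 genes carry most of the results. Each line gives, from RefSeq on GRCm38.p6, the 250 bases before the annotated start on the minus strand, 5′ to 3′. The windows lie at chr17:57228137-57228386, chr7:16259339-16259588, chr7:16244155-16244404 and chr6:122856158-122856407. Capitals mark matches to any of 5 motifs searched on both strands: the C/EBP core TTGCNNAA, the AP-1 site TGANTCA, the ETS core GGAAGTG, the interferon-stimulated response element and the kappa B consensus. RefSeq promoters were found for 7 of the 9 genes, with no entry for C1qa and Cfb.
C3: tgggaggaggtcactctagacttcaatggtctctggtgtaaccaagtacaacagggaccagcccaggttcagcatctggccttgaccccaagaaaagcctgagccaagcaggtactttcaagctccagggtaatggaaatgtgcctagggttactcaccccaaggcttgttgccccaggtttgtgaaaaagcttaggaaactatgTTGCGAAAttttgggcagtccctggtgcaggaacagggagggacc
C5ar1: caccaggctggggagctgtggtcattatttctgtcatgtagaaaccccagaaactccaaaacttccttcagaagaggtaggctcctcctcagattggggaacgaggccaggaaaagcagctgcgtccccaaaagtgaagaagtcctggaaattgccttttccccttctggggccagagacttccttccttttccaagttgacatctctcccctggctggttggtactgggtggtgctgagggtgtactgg
C5ar2: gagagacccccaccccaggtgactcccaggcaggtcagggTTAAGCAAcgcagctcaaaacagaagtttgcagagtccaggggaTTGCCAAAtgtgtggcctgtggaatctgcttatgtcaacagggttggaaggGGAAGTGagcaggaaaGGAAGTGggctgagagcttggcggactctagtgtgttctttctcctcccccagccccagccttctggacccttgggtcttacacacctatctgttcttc
C3ar1: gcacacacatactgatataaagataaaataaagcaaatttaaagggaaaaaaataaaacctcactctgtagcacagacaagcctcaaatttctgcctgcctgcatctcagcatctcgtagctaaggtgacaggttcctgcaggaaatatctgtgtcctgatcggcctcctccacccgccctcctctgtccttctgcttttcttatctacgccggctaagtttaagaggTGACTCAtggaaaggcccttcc
The C3 window holds the C/EBP match TTGCGAAA, 45 to 38 bases before the start. C5ar2 has 2 C/EBP matches and 2 ETS matches, C3ar1 has the AP-1 match TGACTCA 22 to 16 bases before the start, and C5ar1 has a match to none of the 5. The matches do not overlap each other. Of 32851 windows of this length in the same table, 9.56% hold the C/EBP core, 8.55% the ETS core, 6.75% the AP-1 site, 3.9% the kappa B consensus and 2.98% the interferon-response element. Matches are a description of letters, and no binding was measured.

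The levels of the 9 transcripts spanned more than 3 orders of magnitude. By group means per kilobase of gene model, the first 6 stood in the same order in all 3 groups: Cfp, C5ar1, C3ar1, C3, C5ar2 and C1qb. In LD-F1_b libraries these averaged 144 ± 9.15, 103 ± 8.34, 61.0 ± 0.354, 24.1 ± 0.385, 2.18 ± 0.371 and 1.24 ± 0.141 CPM per kb (SD, n = 2). In LD-F1 libraries they averaged 133 ± 17.2, 89.3 ± 3.34, 54.6 ± 4.02, 28.4 ± 4.10, 1.55 ± 0.0575 and 0.575 ± 0.258 CPM per kb, and in PBS libraries 137 ± 2.34, 124 ± 1.13, 63.6 ± 3.81, 15.2 ± 1.45, 4.74 ± 0.0509 and 1.78 ± 0.627. C1qa, C1qc and Cfb came last in every group, at 0.166, 0.179 and 0.0493 CPM per kb in LD-F1_b, 0.216, 0.0552 and 0.0399 in LD-F1 and 0.428, 0.251 and 0.0343 in PBS. In PBS the libraries of C1qa and C1qc overlapped and so did not differ in level beyond their spread, while every other neighbour in this order was separated.

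**Figure D1:**
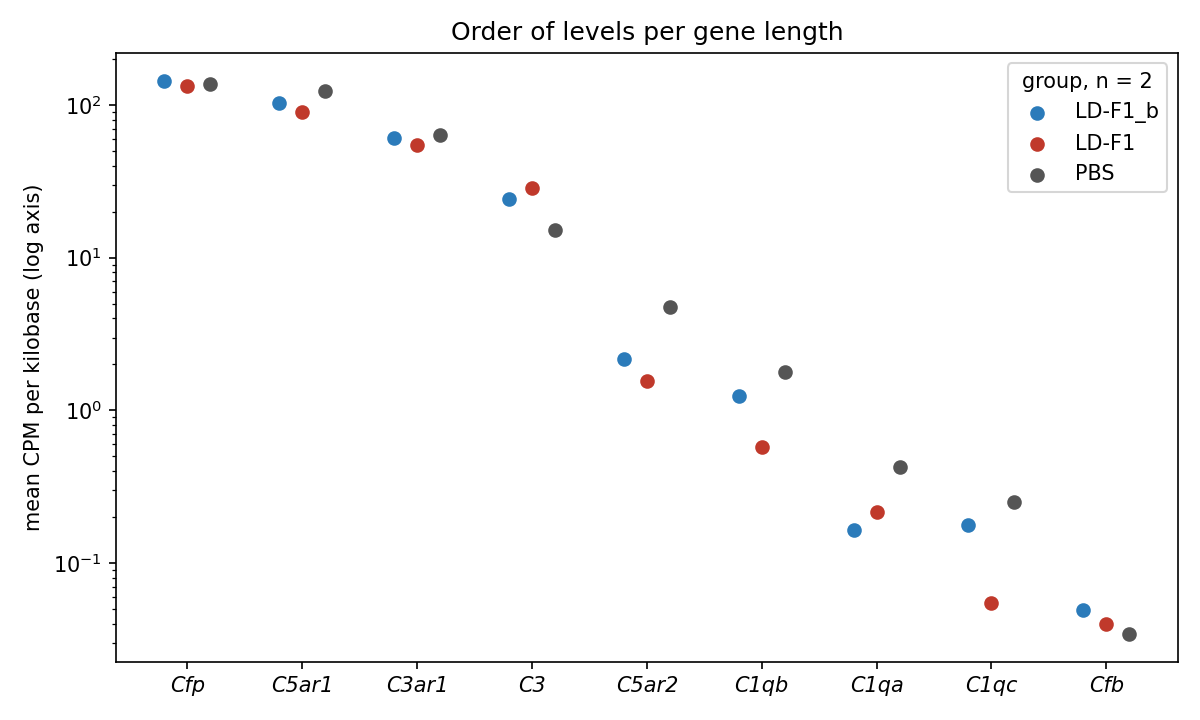
Mean CPM per kilobase of gene model on a log axis for the 9 genes, ordered by their PBS level, with 1 point per group (n = 2). Cfp, C5ar1 and C3ar1 lie above 50 CPM per kb in every group, whereas C1qa, C1qc and Cfb lie below 0.5.

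The transcripts of the receptors for C5a were lower and that of C3 was higher with LD-F1 EVs than with PBS. Of the 6 genes that passed the filter on low counts, 1 rose (C3) and 2 fell (C5ar1 and C5ar2) at an adjusted p under 0.05 in edgeR's quasi-likelihood test, against 21.2% of all 12740 genes tested (11.4% higher, 9.87% lower). With LD-F1_b EVs, 1 rose (C3) and 1 fell (C5ar2), against 11.0% of all genes (6.44% higher, 4.54% lower). The median log2 fold change of the 6 was -0.35 for LD-F1 and -0.16 for LD-F1_b, beside 0.01 over all genes in each. Both comparisons use the same PBS libraries, so they are not independent of each other. Scaled by library totals alone, 5 of the 6 were called for LD-F1, with C3ar1 and C1qb also lower, but the share of higher genes among all calls was then 33.6% in place of 53.5%. The same scaling gave 41.7% in place of 58.7% for LD-F1_b, and moved the median of all genes to -0.10 and -0.07. Without LD-F1 replicate 1, 5 were called for LD-F1, and without LD-F1_b replicate 1, LD-F1_b replicate 2 or PBS replicate 2, 1 was called for LD-F1_b.

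**Figure D2:**
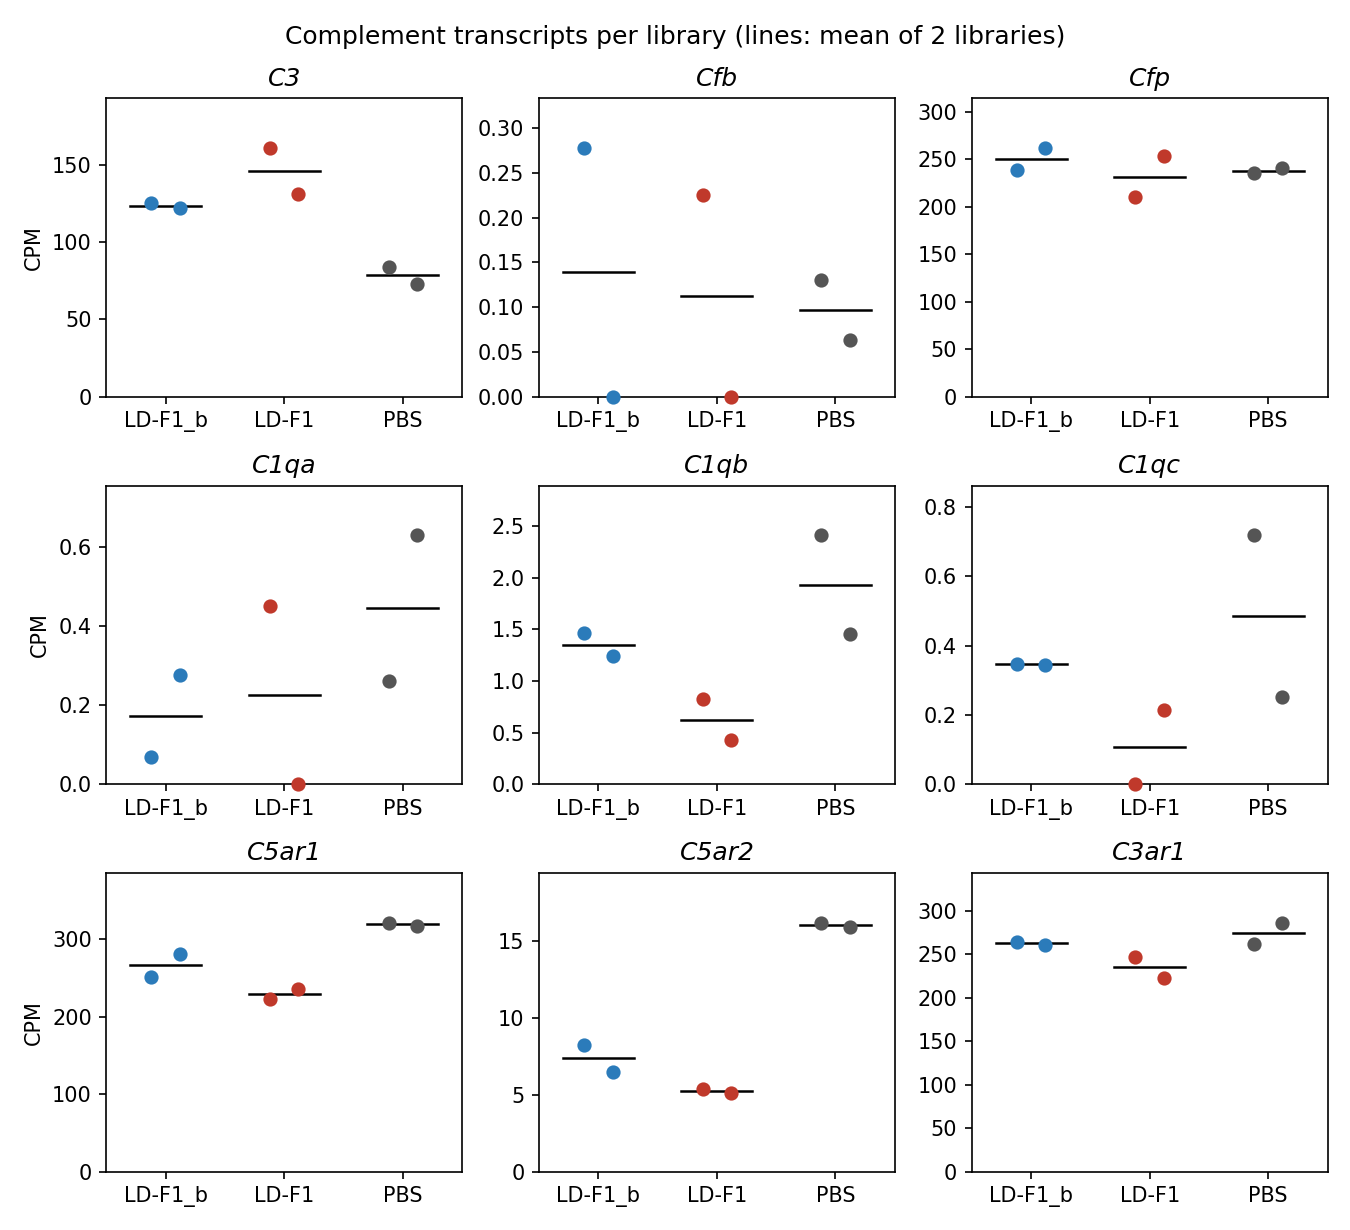
CPM of each of the 9 genes in every library, with a line at the mean of the 2 libraries of a group and a separate linear axis per gene. For C3 all 4 EV libraries (122 to 161 CPM) lie above both PBS libraries (73.1 and 83.7), and for C5ar2 all 4 (5.12 to 8.27) lie below both (15.9 and 16.2).

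C3 is the component on which all activation routes converge. It lies on chromosome 17 from 61267678 to 61293597 on the minus strand (MGP_C57BL6NJ_G0024364), in the positions of the table. Its level was 125 and 122 CPM in LD-F1_b libraries, 161 and 131 in LD-F1 libraries and 83.7 and 73.1 in PBS libraries. Every EV library was above every PBS library, as in 29.9% of all genes for LD-F1 and 30.4% for LD-F1_b. The EV groups did not overlap, with LD-F1_b below LD-F1, as in 17.0% of all genes. The LD-F1 replicates were further apart than those of the other groups. C3 rose 1.87-fold with LD-F1 EVs over PBS (log2 fold change 0.90 ± 0.11 SE, 95% interval 0.66 to 1.14, n = 2 per group, adjusted p = 1.31e-04) and 1.58-fold with LD-F1_b EVs (0.66 ± 0.11, 0.42 to 0.91, adjusted p = 0.00255). The LD-F1 call held in each of 14 alternative analyses. The LD-F1_b call was lost without LD-F1_b replicate 1 (0.64, adjusted p = 0.0625), without LD-F1_b replicate 2 (0.68, adjusted p = 0.0505) and without PBS replicate 2 (0.56, adjusted p = 0.0652), over a range of adjusted p of 1.68e-08 to 0.0652. Fibroblasts also make C3: their 7 markers, 5 of them with counts and Dcn and Lum at 0, summed to 2.07 to 2.16 CPM (LD-F1_b), 2.35 to 2.92 (LD-F1) and 1.63 to 1.64 (PBS), mostly Pdgfrb, and their part in the result was not tested. The gene model of C3 is long (5143 bases), and the difference between its LD-F1 replicates (0.30 on the log2 scale) had the sign of the length trend, whose part was not tested.

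The partners of C3 in the alternative pathway were not called in either comparison with PBS. Cfp, whose product properdin stabilises the C3 convertase, lies on chromosome X from 16247805 to 16253906 (minus strand). It had 239 and 262 CPM in LD-F1_b libraries, 210 and 253 in LD-F1 libraries and 235 and 241 in PBS libraries, and the groups overlapped. Its log2 fold change over PBS was -0.04 ± 0.10 for LD-F1 (95% interval -0.25 to 0.18, adjusted p = 0.832) and 0.08 ± 0.10 for LD-F1_b (-0.14 to 0.29, adjusted p = 0.7), which bounds a change in Cfp within those intervals and does not show equality. The LD-F1 value was 0.09 without LD-F1 replicate 1. Cfp has a gene model of 1736 bases and was lower in LD-F1 replicate 1 than in replicate 2 (-0.26 on the log2 scale). The part of the length trend in this difference was not tested. Cfb, the protease of that convertase, was near the floor, with 4 and 0 counts (LD-F1_b), 3 and 0 (LD-F1) and 2 and 1 (PBS). Summed over libraries the ratio of LD-F1 to PBS was 1.14 (95% interval 0.152 to 8.50, counting error only) and that of LD-F1_b to PBS 1.44 (0.244 to 9.84), so a change of several fold in either direction was not detectable at this depth. The entry Gm20547, with 0 counts in all 6 libraries, covers Cfb and part of the neighbouring C2 on the same strand of chromosome 17 (36305539 to 36335884, against 36305501 to 36311641 for Cfb). The sources used here do not say how reads in both entries were counted, so the low Cfb level is uncertain.

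The 3 C1q chains, encoded side by side on chromosome 4, had few reads in these macrophages. C1qb (144448989 to 144454906) had 21 and 18 counts in LD-F1_b libraries, 11 and 6 in LD-F1 libraries and 37 and 23 in PBS libraries. Both LD-F1 libraries were below both PBS libraries, as in 29.6% of all genes, while LD-F1_b and PBS overlapped in CPM. The log2 fold change of C1qb over PBS was -1.62 ± 0.55 for LD-F1 (95% interval -2.81 to -0.43, adjusted p = 0.0545) and -0.51 ± 0.49 for LD-F1_b (-1.58 to 0.56, adjusted p = 0.577), neither of them called. In the LD-F1 comparison it was called without the filter on low counts (adjusted p = 0.038), with library totals alone (adjusted p = 0.0409) and without LD-F1 replicate 1 (-2.16, adjusted p = 0.0279), over a range of 0.0279 to 0.398.

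C1qc (144460778 to 144464039) and C1qa (144466891 to 144469777) did not pass the filter. C1qc had 5 and 5 counts (LD-F1_b), 0 and 3 (LD-F1) and 11 and 4 (PBS), and C1qa had 1 and 4 (LD-F1_b), 6 and 0 (LD-F1) and 4 and 10 (PBS). The ratio of summed counts of LD-F1 to PBS was 0.228 for C1qc (95% interval 0.0423 to 0.805, counting error only) and 0.488 for C1qa (0.154 to 1.35). For LD-F1_b to PBS it was 0.721 for C1qc (0.29 to 1.72) and 0.386 for C1qa (0.109 to 1.13). All 4 of these ratios and both C1qb values lay below PBS. Only 1 of the 4 intervals of counts, that of C1qc for LD-F1, excluded a ratio of 1, and it does not cover the spread between replicates. The edgeR interval of C1qb for LD-F1 (-2.81 to -0.43) also excluded 0. It is not adjusted for the number of genes tested, and C1qb was not called (adjusted p = 0.0545 in edgeR).

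C5ar2 showed the strongest change relative to PBS among the called genes of the set. It encodes the C5a receptor that does not couple to G proteins and lies on chromosome 7 from 14654630 to 14665348 (MGP_C57BL6NJ_G0032148). Its level was 8.27 and 6.49 CPM in LD-F1_b libraries (119 and 94 counts), 5.4 and 5.12 in LD-F1 libraries (72 and 72 counts) and 16.2 and 15.9 in PBS libraries (248 and 253 counts). The 3 groups did not overlap. Both LD-F1 libraries lay below both PBS libraries in 29.6% of all genes, and both LD-F1_b libraries in 30.0%. Both LD-F1_b libraries lay above both LD-F1 libraries in 17.0%. The share of genes with all 3 groups apart was not computed. C5ar2 fell to 0.328 of the PBS level with LD-F1 EVs (log2 fold change -1.61 ± 0.19 SE, 95% interval -2.03 to -1.19, n = 2 per group, adjusted p = 1.01e-04). With LD-F1_b EVs it fell to 0.460 of the PBS level (-1.12 ± 0.19, -1.52 to -0.72, adjusted p = 0.00218). Both calls held in each of the 14 alternatives, with adjusted p up to 0.00118 for LD-F1 and up to 0.0492 for LD-F1_b.

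C5ar1, the G protein-coupled C5a receptor, is the next gene on chromosome 7 (14667910 to 14681323, same strand, MGP_C57BL6NJ_G0032149), 2561 bases from C5ar2 with 0 entries between them. Its level was 251 and 281 CPM in LD-F1_b libraries, 223 and 236 in LD-F1 libraries and 321 and 317 in PBS libraries. The groups again did not overlap, in the same directions and beside the same shares of all genes as for C5ar2. It fell to 0.720 of the PBS level with LD-F1 EVs (log2 fold change -0.47 ± 0.09, 95% interval -0.66 to -0.28, adjusted p = 0.00204), in each of the 14 alternatives. With LD-F1_b EVs it was at 0.834 of the PBS level (-0.26 ± 0.09, -0.45 to -0.07) and was not called (adjusted p = 0.0784). That value was called with library totals alone (-0.34, adjusted p = 0.0259), in a fit of only LD-F1_b and PBS (-0.27, adjusted p = 0.00372), without LD-F1 replicate 1 (-0.27, adjusted p = 0.00258) and without LD-F1 replicate 2 (-0.26, adjusted p = 0.00253), over a range of 0.00253 to 0.474. Per kilobase, the level of C5ar1 was 40.0 and 57.1 times that of C5ar2 in LD-F1_b libraries, 54.6 and 60.7 times in LD-F1 libraries and 26.2 times in both PBS libraries. The ratio was above PBS in all 4 EV libraries, with a wider spread in LD-F1_b. This ratio was read off after the levels were seen and was not tested.

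C3ar1, the receptor for C3a, lies on chromosome 6 (129295401 to 129304424). It had 264 and 261 CPM in LD-F1_b libraries, 247 and 223 in LD-F1 libraries and 262 and 286 in PBS libraries. Both LD-F1 libraries were below both PBS libraries, while LD-F1_b and PBS overlapped. The log2 fold change over PBS was -0.22 ± 0.09 for LD-F1 (95% interval -0.41 to -0.03, adjusted p = 0.0979) and -0.06 ± 0.09 for LD-F1_b (-0.25 to 0.13, adjusted p = 0.723), neither called. For LD-F1 it was called with library totals alone (-0.33, adjusted p = 0.0196) and without LD-F1 replicate 1 (-0.30, adjusted p = 0.00235), over a range of 0.00235 to 0.535. Libraries that did not overlap were common across the table: in 29.6% of genes both LD-F1 libraries were below both PBS libraries, and in 30.0% both LD-F1_b libraries were. Between the EV groups these shares were 17.0% above and 17.0% below.

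**Figure D3:**
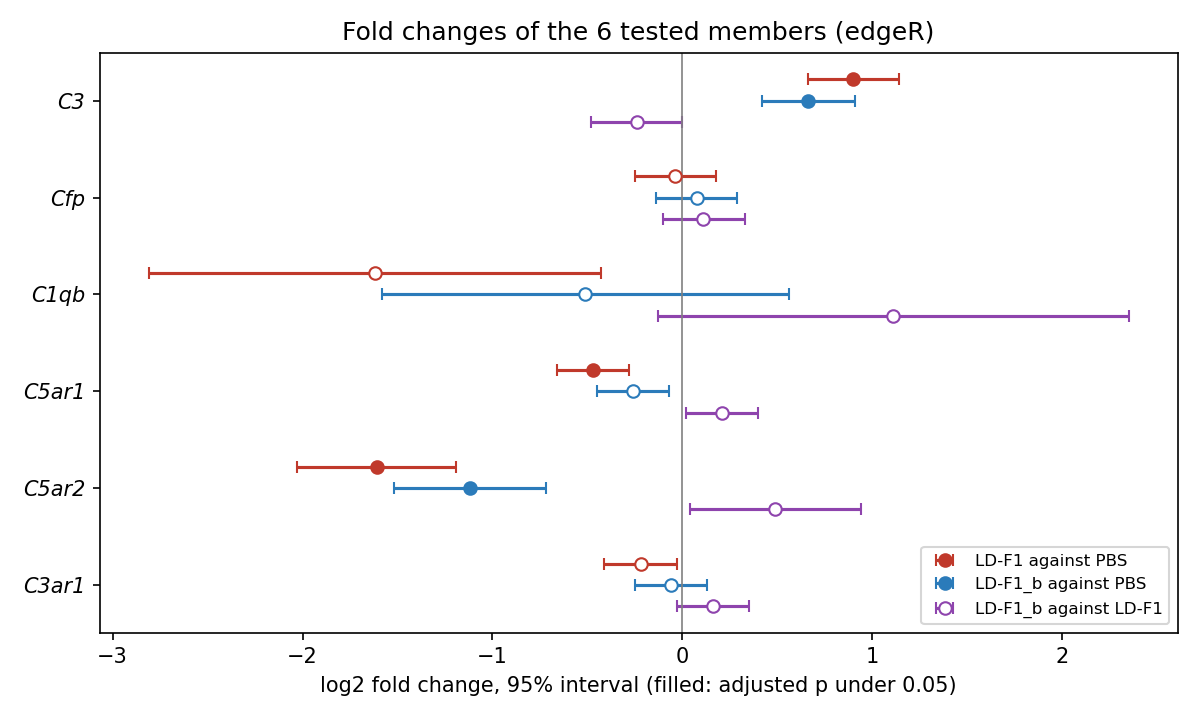
Log2 fold changes with 95% intervals for the 6 tested genes in the 3 comparisons (edgeR), filled where the adjusted p is under 0.05. C3 lies right of 0 and C5ar2 left of 0 in both comparisons with PBS, and no point of LD-F1_b against LD-F1 is filled.

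Set directly against each other, the EV preparations gave no called difference in the complement set. Of the 6 tested genes, 0 were called between LD-F1_b and LD-F1 by edgeR and 0 by DESeq2, against 0.424% of all genes in edgeR (0.0157% higher, 0.408% lower), and 2 had an unadjusted p under 0.05. These were C5ar1, at 266 ± 21.4 CPM in LD-F1_b and 229 ± 8.57 in LD-F1 (log2 fold change 0.21, 95% interval 0.02 to 0.40, adjusted p = 0.506), and C5ar2, at 7.38 ± 1.26 CPM in LD-F1_b and 5.26 ± 0.195 in LD-F1 (0.49, 0.04 to 0.94, adjusted p = 0.512). C3 was at 124 ± 1.98 CPM in LD-F1_b and 146 ± 21.1 in LD-F1 (-0.24, -0.48 to 0.00, adjusted p = 0.578). C3ar1 was at 0.16 (-0.03 to 0.35), Cfp at 0.11 (-0.10 to 0.33) and C1qb at 1.11 (-0.13 to 2.35) on the log2 scale. For C3, C5ar1, C5ar2, C3ar1 and C1qb the LD-F1_b level lay between those of LD-F1 and PBS, and for Cfp it lay above both. The share of all genes with LD-F1_b in between was not computed. Without LD-F1 replicate 2, C3 was called (-0.38, adjusted p = 0.0146), and without LD-F1 replicate 1, C3ar1 was called (0.23, adjusted p = 0.0447).

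Over the 6 libraries, the genes whose log2 CPM followed C5ar2 most closely, among 8196 with a symbol and a mean of at least 10 CPM, were the retinoblastoma-like Rbl1 (Pearson's r = 0.9996) and the transcriptional repressor gene E2f8 (r = 0.9993). E2f8 had 14.6 CPM in LD-F1_b, 10.7 in LD-F1 and 32.7 in PBS, and Rbl1 had 52.1 CPM in LD-F1_b, 45.2 in LD-F1 and 74.4 in PBS. For C5ar1 they were Dph7 (r = 0.9940) and Naaa (r = 0.9935), and for C3 Papd4 (r = 0.9964) and Ndel1 (r = 0.9944). With 6 points in 3 groups such values are common: 371, 198 and 295 genes exceeded 0.95 for C5ar2, C5ar1 and C3.

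Most other genes of the cascade had too few counts in their entries to be tested. Whether entries overlapping these genes took reads from them was not tested, and such an entry over Itgam is described under the other observations. Of 53 further complement genes listed, 49 were in the table, 34 had counts and 16 passed the filter. For LD-F1 against PBS, 1 rose and 2 fell, and for LD-F1_b against PBS, 1 rose and 1 fell, near the shares of all genes called (21.2% for LD-F1 and 11.0% for LD-F1_b), with a median log2 fold change of 0.03 in each, beside 0.01 over all genes. Calr, which encodes calreticulin, a chaperone of the endoplasmic reticulum that also binds C1q at the cell surface, had 1370 and 1360 CPM in LD-F1_b libraries, 1330 and 1400 in LD-F1 libraries and 758 and 743 in PBS libraries. It rose by 0.86 ± 0.08 on the log2 scale with LD-F1_b EVs (adjusted p = 3.34e-05) and by 0.86 ± 0.08 with LD-F1 EVs (adjusted p = 1.37e-05). The entry that the table matches to Lrp1, an endocytic receptor that pairs with calreticulin, fell by 0.75 ± 0.15 with LD-F1 EVs (adjusted p = 0.00632) and by 0.55 ± 0.15 with LD-F1_b EVs (adjusted p = 0.0459). Its LD-F1 replicates differed, at 2180 and 1450 CPM, against 2140 and 2010 in LD-F1_b and 3100 and 3000 in PBS. The Lrp1 value for LD-F1 was -1.08 without LD-F1 replicate 1 and -0.49 without LD-F1 replicate 2. Replicate 1 was the higher, which is the sign of the length trend for longer genes, whose part was not tested. Colec12, a scavenger receptor of the collectin family, fell by 0.34 ± 0.09 with LD-F1 EVs (adjusted p = 0.0202) and was at -0.16 ± 0.09 with LD-F1_b EVs (adjusted p = 0.322). Calr was called in each of the 14 alternatives in both comparisons, Lrp1 in 14 for LD-F1 and 10 for LD-F1_b, and Colec12 in 9 for LD-F1. Without LD-F1 replicate 1 the number called for LD-F1 was 6, and for LD-F1_b it was 4 without either LD-F1 library and 1 when an LD-F1_b or a PBS library was left out, whichever of the 4 it was.

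Of the regulators that protect host cells, 4 were tested and 0 were called by edgeR in either comparison with PBS, too few genes to set against the 21.2% and 11.0% of all genes called. Cr1l, which encodes the membrane regulator Crry, was at 54.9 CPM in LD-F1_b, 55.0 in LD-F1 and 47.7 in PBS (log2 fold change 0.20 ± 0.11 for LD-F1_b and 0.21 ± 0.11 for LD-F1). Among the recognition molecules of the lectin pathway, ficolin A (Fcna) had 22.4 CPM in LD-F1_b, 20.7 in LD-F1 and 19.2 in PBS and was not called. The integrin chains of complement receptors, Itgb2 (338 CPM in LD-F1_b, 324 in LD-F1 and 367 in PBS) and the entry matched to Itgax (32.2 CPM in LD-F1_b, 29.7 in LD-F1 and 27.0 in PBS), were not called either. Among the 49 genes, 15 had 0 counts in every library, among them the terminal components C7, C8a and C8b and the alternative pathway protease gene Cfd. C5 itself, the precursor of the ligand of C5ar1 and C5ar2, had 3 counts, all in PBS replicate 1.

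Receptors for other chemoattractants, set beside the anaphylatoxin receptors, moved in both directions. Of 17 listed, 11 were tested, and in each comparison with PBS 4 rose and 2 fell, beside 21.2% of all genes called for LD-F1 and 11.0% for LD-F1_b. The median log2 fold change was 0.47 in each, beside 0.01 over all genes. The chemerin-binding receptor gene Ccrl2 was at 6.28 CPM in LD-F1_b, 9.17 in LD-F1 and 0.417 in PBS, and rose by 3.88 ± 0.34 with LD-F1_b EVs and 4.43 ± 0.33 with LD-F1 EVs. The entry matched to Fpr2, a formyl peptide receptor, rose by 2.81 ± 0.60 with LD-F1_b EVs and 3.16 ± 0.59 with LD-F1 EVs, with 4 and 3 counts in the PBS libraries. The chemokine receptor genes Ccr1 (0.47 ± 0.11 with LD-F1_b EVs and 0.52 ± 0.11 with LD-F1 EVs) and Cx3cr1 (0.64 ± 0.10 with LD-F1_b EVs and 0.47 ± 0.10 with LD-F1 EVs) also rose. Cxcr4, the receptor for CXCL12, fell by 1.60 ± 0.31 with LD-F1_b EVs and by 2.00 ± 0.33 with LD-F1 EVs. S1pr1, a receptor for sphingosine 1-phosphate, fell with LD-F1 EVs (-1.02 ± 0.20, adjusted p = 0.00298) and was at -0.62 ± 0.19 with LD-F1_b EVs (adjusted p = 0.0624). Ptafr, the receptor for platelet-activating factor, fell with LD-F1_b EVs (-0.39 ± 0.11, adjusted p = 0.0446) and was at -0.30 ± 0.11 with LD-F1 EVs (adjusted p = 0.0812). The Ptafr call held in 7 of 14 alternatives, with adjusted p of 0.00644 to 0.311, and was lost among others in DESeq2 (adjusted p = 0.1) and on leaving out each LD-F1_b or PBS library in turn. Ccrl2 was called in every alternative that tested it, in both comparisons with PBS. With LD-F1_b EVs the call held in 10 of 13 alternatives for Fpr2 and 11 of 13 for Cxcr4. It held in 10 of 14 for Ccr1 and 12 of 14 for Cx3cr1. With LD-F1 EVs it held in 13 of 13 for Fpr2 and Cxcr4, 12 of 14 for Ccr1 and 13 of 14 for Cx3cr1. S1pr1 was called in 14 of 14 for LD-F1 and in 6 of 14 for LD-F1_b. Between the EV groups 0 of the 11 were called by edgeR and 0 by DESeq2. For LD-F1_b the number called was 2 without LD-F1_b replicate 1, 3 without LD-F1_b replicate 2, 1 without PBS replicate 1 and 3 without PBS replicate 2.

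**Figure D4:**
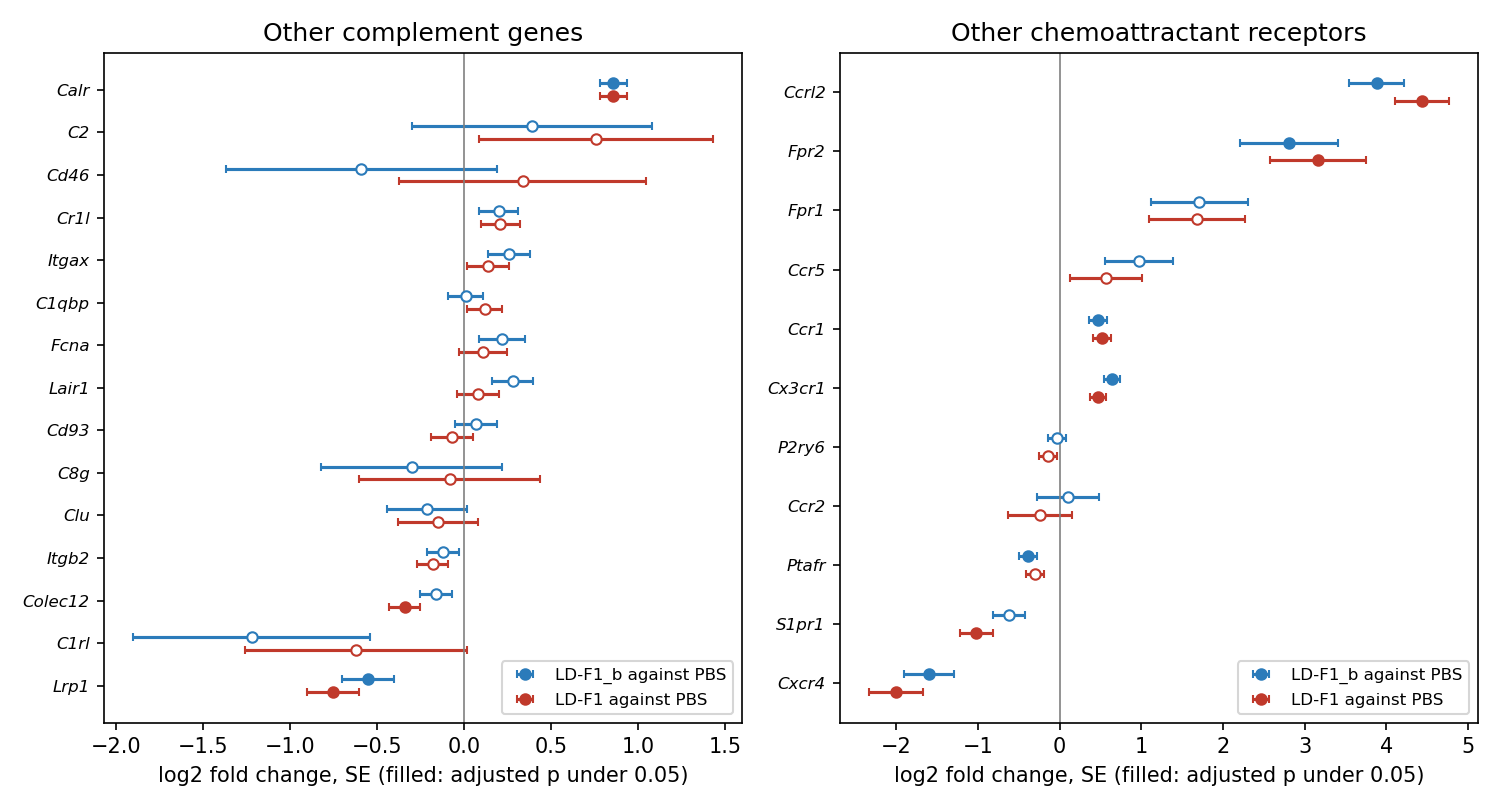
Log2 fold changes over PBS with standard errors (edgeR) for 15 of the 16 tested further complement genes and the 11 tested chemoattractant receptors, filled where the adjusted p is under 0.05. Calr is higher and Lrp1 lower in both comparisons, and Ccrl2 and Cxcr4 are at the ends of the receptor panel.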

How the data were processed

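RNA was selected on poly-T beads and reverse-transcribed with random hexamers, per the labels' protocols. The deposited values are whole-number counts of reads per gene made by the authors. The submitters' processing notes name fastp, HISAT2 2.0.5, StringTie 1.3.3b, featureCounts 1.5.0-p3 and the build GRCm39, while 41096 of 41972 entries carry identifiers of the C57BL/6NJ annotation, so positions follow the table. The sources used here state neither the strand setting nor how reads in overlapping entries were treated. Columns matching no sample numbered 0.

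From these counts, all 6 libraries were fitted together with edgeR 4.0.16 in R 4.3.3 (filterByExpr, TMM scaling, robust quasi-likelihood test, 3 residual degrees of freedom, Benjamini-Hochberg adjustment over 12740 genes, called at an adjusted p under 0.05). CPM used TMM-scaled totals. Genes under the filter were compared by summed counts with exact intervals, which cover counting error only. All 9 genes are described. From the further complement, chemoattractant receptor and cell type marker lists, genes called with a mean of at least 1 CPM or at 0 counts were named, and for each called member the 2 genes of highest Pearson r. Other genes named were chosen after their values were seen. The members and lists were chosen with earlier results of these data known. Entries with no symbol were taken by the protein match in the table's description, which 8 listed genes needed. Alternatives were DESeq2 1.42.0, other scalings and filters, only the groups compared, no robust estimation, a replicate block, and each library left out. The values of 1 further complement gene are not reported here. The scripts were tested on simulated data.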

Additional observations from a re-analysis of the deposited data

How the results depend on the processing

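Of 249 values of the 6 tested complement genes over 14 alternatives, 232 kept their direction and side of the threshold, 12 gained a call, 3 lost one and 2 changed sign. The sign changes were Cfp, at 0.09 for LD-F1 against PBS and -0.02 for LD-F1_b against LD-F1, both without LD-F1 replicate 1. With 1 library left out they ranged over -0.18 to 0.09 and -0.02 to 0.25. The number of the 6 called for LD-F1 against PBS (3) was 5 with library totals alone and 3 to 5 with 1 library left out. For LD-F1_b against PBS (2) it was 1 to 3, and between the EV groups (0) it was 0 to 1. Of the further complement genes, 2 to 6 were called for LD-F1 against PBS, 1 to 4 for LD-F1_b against PBS and 0 to 4 between the EV groups (4 without LD-F1 replicate 1) with 1 library left out, and 4 for LD-F1_b against PBS in a fit of only those groups. Of the chemoattractant receptors, 4 to 7 were called for LD-F1 and 1 to 7 for LD-F1_b against PBS with 1 library left out, and 3 for LD-F1 at a minimum of 10 CPM in 2 libraries, where fewer genes were tested. Over all genes, 1398 were called for LD-F1_b against PBS, but 3098 in a fit of only those groups and 401 to 3142 with 1 library left out. For LD-F1 against PBS 2707 were called, and 1213 to 4497 with 1 library left out. Between the EV groups 54 were called, 185 without a filter, 97 by DESeq2, 33 in a fit of only those groups and 0 to 1152 with 1 library left out. The causes were not tested. Leaving out 1 library leaves a group with 1 sample, assumed to vary like the others. Deviations of same-numbered libraries correlated at -0.02 (LD-F1 and PBS), 0.00 (LD-F1_b and PBS) and 0.08 (LD-F1_b and LD-F1), so the numbers were not taken to pair samples. A replicate block gave 4 of the 6 called for LD-F1 against PBS, with C1qb at -1.62 (adjusted p = 0.0491), 2 for LD-F1_b against PBS and 0 between the EV groups. With the block Ptafr was not called for LD-F1_b against PBS (adjusted p = 0.0562), which left 5 chemoattractant receptors, as DESeq2 did. Depth limits C1qa, C1qc and Cfb, which had at most 11 counts in a library.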

Other observations

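The terminal complement gene C9, singled out after its values were seen, had 0 and 0 counts in LD-F1_b libraries, 5 and 6 in LD-F1 libraries and 0 and 0 in PBS libraries. It did not pass the filter and was not tested. Serping1, which encodes the C1 inhibitor, had 0 and 1 counts (LD-F1_b), 8 and 0 (LD-F1) and 0 and 1 (PBS), so its counts in LD-F1 came from replicate 1. The entry named Itgam, an integrin chain of complement receptor 3, had 0 to 4 counts in a library, while an unnamed entry over the same stretch of chromosome 7 (137621345 to 137685831), matched to Itgam in the table, had 2056 to 2460. That entry was at 169 and 169 CPM in LD-F1_b libraries, 154 and 175 in LD-F1 libraries and 141 and 137 in PBS libraries, and was not called (log2 fold change over PBS 0.28 ± 0.09 for LD-F1_b, adjusted p = 0.0675, and 0.24 ± 0.09 for LD-F1, adjusted p = 0.0751).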
